A study of Mus musculus with 19 samples.

Results

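The expression of 9 blood monocyte genes was followed in donor cells sorted from the brains of transplanted mice, here called donor macrophages. The 9 genes were taken from a fixed list of symbols and matched to Ensembl identifiers. Ly6c2, Plac8, Chil3, Fn1 and Vcan were listed as genes of classical monocytes, Ace, Spn and Treml4 as genes of non-classical monocytes, and Lyz2 as a gene of both. All 9 were present among the 13783 genes of the sorted-cell table, and 5 of them, Ace, Vcan, Fn1, Spn and Lyz2, among the 15634 genes of the hippocampus table.

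The recipients were mice given 1100 cGy of total-body irradiation in split doses and then 5000000 T-cell-depleted (TCD) bone marrow cells. Mice of the graft-versus-host disease (GVHD) groups also received 500000 splenic T cells, and TCD mice received none. On day 70, brain cells were sorted into GVHD donor macrophages (6 libraries), GVHD host microglia (4 libraries) and TCD host microglia (3 libraries), and on day 80 whole hippocampus was taken from GVHD mice (3 libraries) and TCD mice (3 libraries). Donor cells descend from the infused marrow and host cells lived through the irradiation, so origin, irradiation and cell type cannot be told apart in a comparison of donor with host cells. Donor macrophages of TCD mice were not analysed here. Strain, sex, age and the gates of the sort are not given in the labels. The labels do not say that the libraries are separate animals. The p-values thus set a difference against the spread between these libraries, which may be technical.

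Monocytes leave the marrow as classical cells rich in Ly6C, and part of them turn into non-classical cells that patrol the vessel wall. When monocytes enter tissue and become macrophages, many of the transcripts that mark the blood stage fall and tissue genes rise. In an irradiated brain, marrow-derived cells can take up residence beside the microglia, which arise in the yolk sac and are otherwise hardly replaced from the blood.

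The 250 bases before the annotated start of the gene are shown for the 2 classical and 2 non-classical members whose window holds the motif marked in them. The sequences are from RefSeq on GRCm38.p6 and run in the direction of the gene. Capitals mark GGAAGT or its reverse complement ACTTCC, a core of the sites that ETS factors such as PU.1, a regulator of the myeloid lineage, can bind.
Ly6c2, chr15:75111972-75112221, minus strand: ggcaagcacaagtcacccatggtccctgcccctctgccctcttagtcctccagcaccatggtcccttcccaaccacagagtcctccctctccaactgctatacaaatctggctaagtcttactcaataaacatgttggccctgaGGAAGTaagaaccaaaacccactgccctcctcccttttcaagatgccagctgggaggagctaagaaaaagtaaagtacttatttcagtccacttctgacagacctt
Chil3, chr3:106167565-106167814, minus strand: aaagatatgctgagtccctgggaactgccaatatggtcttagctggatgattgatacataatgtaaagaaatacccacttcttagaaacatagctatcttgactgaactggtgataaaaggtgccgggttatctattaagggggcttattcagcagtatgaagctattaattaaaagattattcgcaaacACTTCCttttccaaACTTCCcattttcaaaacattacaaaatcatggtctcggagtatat
Spn, chr7:127137824-127138073, minus strand: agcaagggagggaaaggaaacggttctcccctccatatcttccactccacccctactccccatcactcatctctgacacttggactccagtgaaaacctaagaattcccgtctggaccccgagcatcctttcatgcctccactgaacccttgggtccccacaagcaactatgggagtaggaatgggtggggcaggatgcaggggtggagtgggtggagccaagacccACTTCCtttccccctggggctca
Treml4, chr17:48264045-48264294, plus strand: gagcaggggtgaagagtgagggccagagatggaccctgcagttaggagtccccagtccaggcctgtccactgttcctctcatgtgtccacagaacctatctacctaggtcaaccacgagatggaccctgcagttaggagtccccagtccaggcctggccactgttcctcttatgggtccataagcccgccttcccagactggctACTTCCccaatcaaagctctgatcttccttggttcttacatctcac
Windows were found for 8 of the 9 members, and Fn1 is named only. GGAAGT on either strand was present in the windows of 5 of the 8, those of Ly6c2, Chil3, Spn, Treml4 and Lyz2, and in 22.23% of 27025 genes with a window. TTGCNNAA, a form of the site of C/EBP factors searched on both strands, was present in 1 of the 8, Plac8, and in 10.84% of genes. AAAGGTCA, which NR4A factors can bind, was present in 0 of the 8 and in 1.55% of genes, on either strand. A TATAAA box on either strand was present in 1 of the 8, Ace, and in 14.33% of genes. None of the 4 motifs contains another, and a match describes letters only.

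The sort was checked against markers. Of 10 homeostatic microglia genes, 9 were called lower in donor macrophages than in GVHD host microglia, as were 19.2% of all tested genes. The sum of the 10 ran from 8535 to 13313 normalised counts in donor libraries. It was 39855 to 48870 in GVHD host and 47175 to 57966 in TCD host libraries. The tenth gene, Fcrls, did not pass the test and had a median of 1462 in donor libraries (929 to 2527), against 932 in GVHD host libraries (282 to 1471), a log2 difference of 0.97 ± 0.43 (limma adjusted p = 0.0914). Sall1, a transcription factor that defines microglia, stood at 3.3 to 14.4 in donor libraries, against 263 to 297 in GVHD host and 274 to 401 in TCD host libraries. Donor library 5 held the most estimated reads, 35844769, and donor libraries 2 and 3 the fewest of the 6, 9699901 and 11900361. The titles carry 1 of 2 API numbers, which the labels do not explain, and library 1 of each sorted group is the one with the lower number. The description of TCD host library 1 reads Syn where the other TCD host libraries read TCD, so its group is uncertain.

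All 9 monocyte genes were higher in donor macrophages than in the microglia of the same transplant group. Values are the authors' normalised counts, and tests are limma on log2(value + 1) with Benjamini-Hochberg adjustment over 13086 genes, called at an adjusted p under 0.05; this scale understates the change of low genes. By this rule 19.4% of all tested genes were called higher in donor macrophages than in GVHD host microglia and 19.2% lower. For 8 of the 9 genes no donor library overlapped a GVHD host library, Vcan being the exception, and 13.3% of all tested genes were higher without overlap. The median log2 difference was 4.03 over the 9 genes and 0.04 over all tested genes. In bulk libraries, fewer cells of a type and less RNA per cell cannot be told apart.

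**Figure D1:**
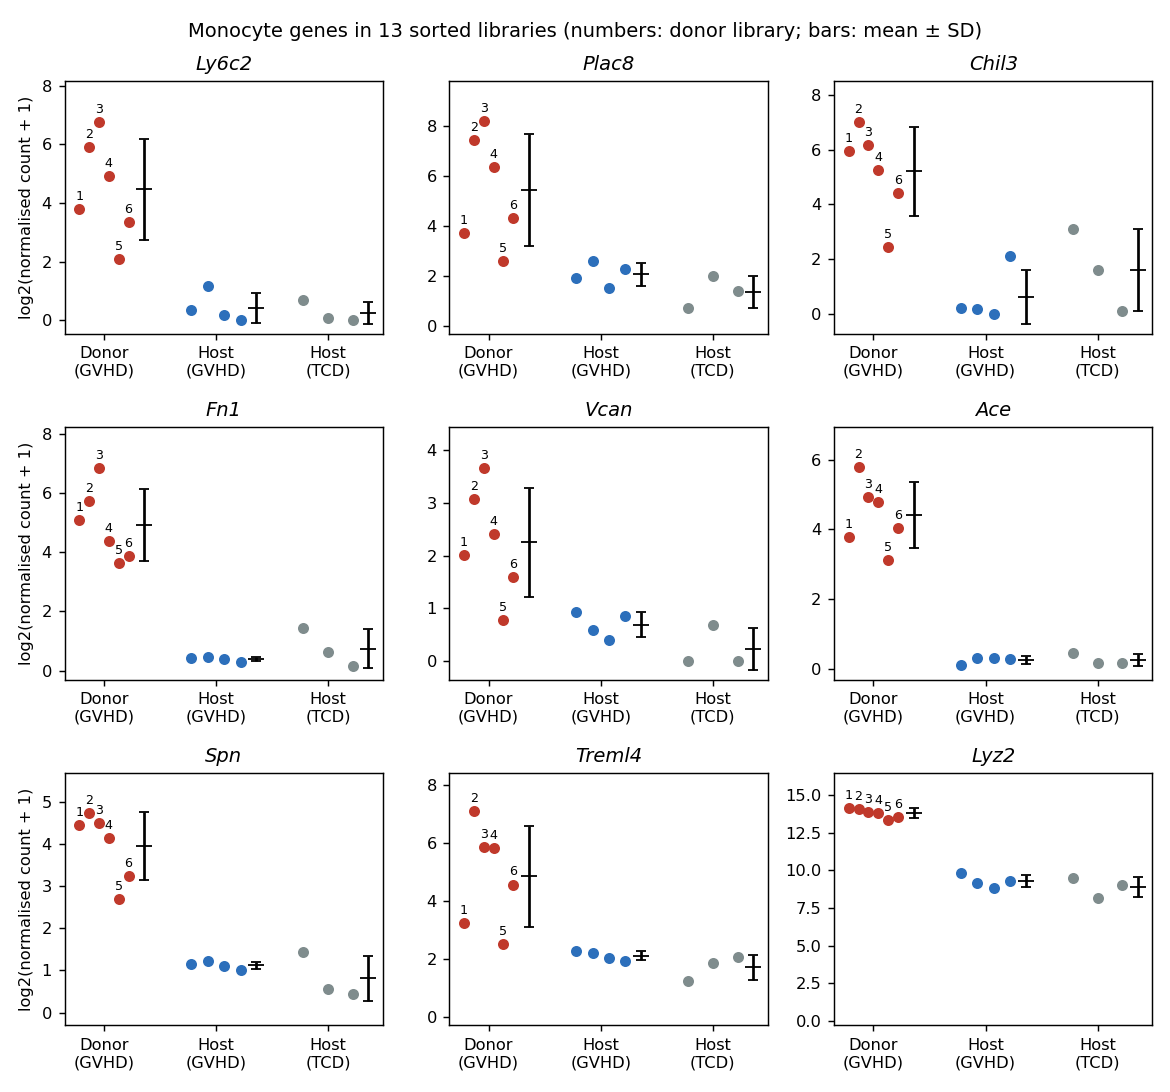
Log2(normalised count + 1) of each monocyte gene in donor macrophages of GVHD mice, host microglia of GVHD mice and host microglia of TCD mice; each point is a library, numbers name donor libraries, and bars give mean ± SD. Donor library 5 is the lowest donor library in all 9 panels, and for Vcan it lies within the range of GVHD host microglia.

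Among the classical genes, Ly6c2, which encodes the surface antigen by which mouse classical monocytes are gated, had 3.27, 20.8 and 107 normalised counts in the lowest, median and highest donor library, against 0.27, 1.24, 0.13 and 0 in GVHD host libraries 1 to 4. TCD host libraries 1 to 3 had 0.61, 0.06 and 0. The host libraries were thus at or near 0 while the donor libraries spanned a 32.7-fold range. The difference was 4.03 ± 0.74 (log2 ± SE, adjusted p = 0.000824) against GVHD host and 4.18 ± 0.82 (adjusted p = 0.00144) against TCD host microglia. Ly6c1, a near-identical neighbour with 97.6% identity over the aligned transcript, stayed at 0.83 or less in every sorted library, and the share of reads the authors' counting could have moved between them is not known.

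Plac8, a small cysteine-rich protein of monocytes and granulocytes, had 5.19, 50.4 and 300 normalised counts in the lowest, median and highest donor library, against 2.77, 5.06, 1.91 and 3.86 in GVHD host libraries 1 to 4. The values were 0.65, 3.02 and 1.69 in TCD host libraries 1 to 3. No donor library overlapped a host library, but donor library 5 at 5.19 lay only just above GVHD host library 2 at 5.06. The difference was 3.28 ± 0.89 (adjusted p = 0.0110) against GVHD host and 3.88 ± 0.99 (adjusted p = 0.00772) against TCD host microglia.

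Chil3, a secreted chitinase-like lectin also known as Ym1, had 4.41, 48.8 and 128 normalised counts in the lowest, median and highest donor library, against 0.16, 0.13, 0 and 3.29 in GVHD host libraries 1 to 4. TCD host libraries 1 to 3 had 7.57, 1.99 and 0.06, so TCD host library 1 exceeded donor library 5. The difference was 4.65 ± 0.81 (adjusted p = 0.000548) against GVHD host and 3.75 ± 0.89 (adjusted p = 0.00522) against TCD host microglia. Chil3 is also a gene of neutrophils and their precursors. The neutrophil list without Csf3r, which microglia express, summed to 22.4 in GVHD host library 4 and to 1.72, 2.15 and 2.23 in GVHD host libraries 1 to 3, and to 118, 18.2 and 3.50 in TCD host libraries 1 to 3. The 3 host libraries with Chil3 above 1 were therefore the 3 with a neutrophil sum above 4. In donor libraries 1 to 6 that sum was 644, 38.7, 166, 133, 27.8 and 76.1, with the highest Chil3 value in library 2; the part of neutrophil RNA in the Chil3 differences was not tested. Chil4, with 94.7% identity to Chil3, is not listed in the table.

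Fn1 and Vcan encode matrix molecules, fibronectin and the proteoglycan versican, that classical monocytes transcribe. Fn1 had 11.3, 26.3 and 114 normalised counts in the lowest, median and highest donor library, against 0.35, 0.38, 0.32 and 0.23 in GVHD host libraries 1 to 4 and 1.73, 0.54 and 0.12 in TCD host libraries 1 to 3. Every donor library thus lay well above every host library. The difference was 4.55 ± 0.53 (adjusted p = 2.03e-05) against GVHD host and 4.24 ± 0.59 (adjusted p = 9.68e-05) against TCD host microglia. Vcan had the smallest difference of the 9, with 0.72, 3.66 and 11.7 normalised counts in the lowest, median and highest donor library, against 0.90, 0.51, 0.32 and 0.79 in GVHD host libraries 1 to 4. TCD host libraries 1 to 3 had 0, 0.60 and 0. Donor library 5 at 0.72 fell inside the GVHD host range and just above TCD host library 2. The Vcan difference was 1.56 ± 0.45 (adjusted p = 0.0161) against GVHD host and 2.01 ± 0.50 (adjusted p = 0.00698) against TCD host microglia. Without GVHD host library 3 the first of these was 1.44 and no longer called (adjusted p = 0.0514).

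Among the non-classical genes, Ace, the angiotensin-converting enzyme, was close to 0 in every host library. It had 7.74, 20.9 and 53.8 normalised counts in the lowest, median and highest donor library, against 0.08, 0.25, 0.25 and 0.23 in GVHD host libraries 1 to 4 and 0.39, 0.12 and 0.12 in TCD host libraries 1 to 3. The GVHD host values stand for an estimated 2, 4, 4 and 2 reads, and the TCD host values for 9, 2 and 1. The difference was 4.12 ± 0.40 (adjusted p = 4.11e-06) against GVHD host and 4.09 ± 0.44 (adjusted p = 1.13e-05) against TCD host microglia, the smallest standard errors among the 9 after Lyz2 and Spn.

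Spn, the sialic acid-rich surface protein CD43 that is high on non-classical monocytes, had 5.43, 18.6 and 25.6 normalised counts in the lowest, median and highest donor library, against 1.21, 1.33, 1.15 and 1.02 in GVHD host libraries 1 to 4 and 1.69, 0.48 and 0.36 in TCD host libraries 1 to 3. All donor libraries lay above all host libraries, at a ratio of means of 13.9 against GVHD host microglia. The difference was 2.87 ± 0.35 (adjusted p = 3.06e-05) against GVHD host and 3.22 ± 0.39 (adjusted p = 2.94e-05) against TCD host microglia.

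Treml4, a receptor of the TREM family carried by non-classical monocytes and some dendritic cells, had 4.74, 39.5 and 137 normalised counts in the lowest, median and highest donor library, against 3.82, 3.603, 3.06 and 2.84 in GVHD host libraries 1 to 4. TCD host libraries 1 to 3 had 1.34, 2.60 and 3.14. GVHD host libraries thus had a low but steady level, and TCD host libraries spanned a 2.34-fold range. Donor library 5 stood only slightly above the highest host library. The difference was 2.68 ± 0.70 (adjusted p = 0.00838) against GVHD host and 3.01 ± 0.77 (adjusted p = 0.00805) against TCD host microglia.

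Lyz2, lysozyme M of monocytes, macrophages and neutrophils, was high in every donor library. It had 10511, 14854 and 18394 normalised counts in the lowest, median and highest donor library, against 909, 559, 459 and 630 in GVHD host libraries 1 to 4. TCD host libraries 1 to 3 had 717, 285 and 524. The donor mean was 22.8 times the GVHD host mean, and the difference was 4.58 ± 0.19 (adjusted p = 6.23e-09) against GVHD host and 5.02 ± 0.21 (adjusted p = 1.21e-08) against TCD host microglia. Lyz1, 96.0% identical over the aligned transcript, had 5.16 to 32.8 in donor libraries and at most 1.04 in host libraries, and reads may have been shared between Lyz1 and Lyz2.

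All 9 genes were called higher in donor macrophages than in TCD host microglia as well, where 18.4% of all tested genes were called higher and 18.6% lower. In that comparison 8 of 9 did not overlap, Chil3 being the exception, against 14.4% of all tested genes. Both comparisons use the same 6 donor libraries and so are not independent. Without TCD host library 1, whose label is uncertain, all 9 remained called, with differences from 1.92 for Vcan to 5.11 for Lyz2, and Chil3 differed by 4.34 (adjusted p = 0.00613). Within the lower API number, with 1 library a group, the 9 differences of donor minus GVHD host ran from 0.96 to 5.73 on the log2 scale, and within the higher API number, with 5 donor and 3 GVHD host libraries, from 1.69 to 4.64. Against TCD host they ran from 2.00 to 4.68 within the lower and from 1.96 to 5.13 within the higher API number. All of these were positive.

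**Figure D2:**
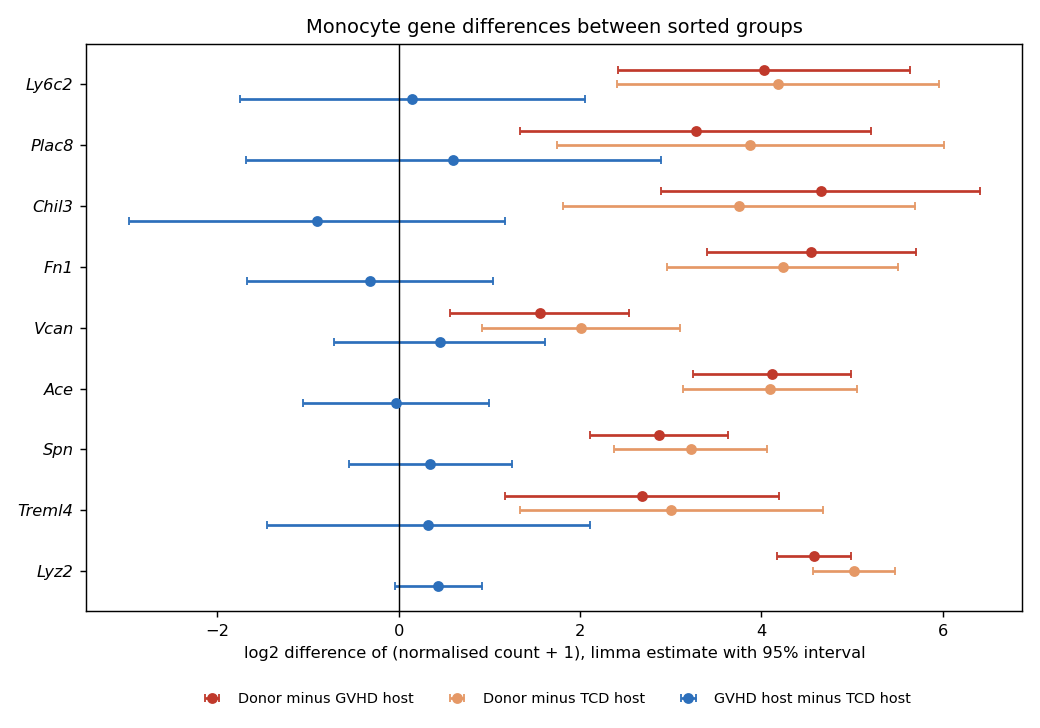
Limma estimates with 95% intervals of the log2 difference of each monocyte gene, for donor macrophages minus GVHD host microglia, donor macrophages minus TCD host microglia, and GVHD host minus TCD host microglia. All 18 donor intervals lie above 0, and all 9 intervals between the host groups cross 0.

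Between the host groups 0 of the 9 genes were called, and 0 of the 9 had an unadjusted p under 0.05, where 0.107% of all tested genes were called in either direction by limma and 897 of 13086 had an unadjusted p under 0.05. The differences of GVHD host minus TCD host microglia ran from -0.90 for Chil3 to 0.60 for Plac8. Lyz2 came nearest to the threshold, with a mean of 639 ± 193 in GVHD host microglia (SD, n = 4) and 509 ± 216 in TCD host microglia (SD, n = 3), a log2 difference of 0.44 ± 0.22 (limma adjusted p = 0.774) and an interval from -0.04 to 0.92. The intervals of the low genes were wide, from -1.69 to 2.89 for Plac8 and from -2.98 to 1.18 for Chil3, so changes of several fold would not have been detectable with these libraries. Within the lower API number, 1 library a group, they ran from -2.89 to 1.19, and within the higher from -0.08 to 0.60, with 4 and 7 of the 9 above 0. Without TCD host library 1 the Lyz2 difference was 0.53 (limma adjusted p = 0.924) and again 0 of the 9 were called. Each of the 9 genes overlapped between the host groups, where 6.55% of all tested genes did not.

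Per kilobase of all annotated exons of a gene joined, the order of the donor means was Lyz2, Plac8, Chil3, Treml4, Ly6c2, Ace, Spn, Fn1 and Vcan. For Ly6c2 this length was 2740 bases, while its longest protein-coding transcript has 822. The place of Ly6c2 in the order therefore depends on the length used. Lyz2 averaged 11079 ± 2269 normalised counts per kb (SD, n = 6) and its lowest library, at 7987, was far above the highest library of any other member, 188 for Plac8. Plac8 averaged 61.9 ± 73.7, Chil3 32.9 ± 26.9, Treml4 24.003 ± 24.8 and Ly6c2 13.4 ± 14.6 per kb, and the ranges of mean ± SD overlapped. The SD is that between libraries, and differences between genes within the same library were not tested. The same holds for Ace at 4.58 ± 3.15, Spn at 3.49 ± 1.69 and Fn1 at 3.47 ± 3.34 per kb. Vcan came last at 0.34 ± 0.28 per kb.

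The monocyte genes also varied strongly among the donor libraries themselves. Donor library 5 was the lowest of the 6 for all 9 genes, which was so for 19.7% of all tested genes, and donor libraries 2 and 3 were the highest pair for 8 of 9, which was so for 13.9%. In donor libraries 1 to 6, Ly6c2 had 12.8, 59.1, 107, 28.9, 3.27 and 9.16 normalised counts. Plac8 had 12.2, 173, 300, 81.6, 5.19 and 19.2, and Treml4 had 8.37, 137, 58.1, 56.1, 4.74 and 22.8. The classical genes Ly6c2, Plac8, Fn1 and Vcan peaked in library 3, and the non-classical genes Ace, Spn and Treml4, with Chil3, peaked in library 2. Lyz2 was the exception, with 18394, 16988, 15200, 14509, 10511 and 11879, highest in library 1 and within a 1.75-fold range.

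**Figure D3:**
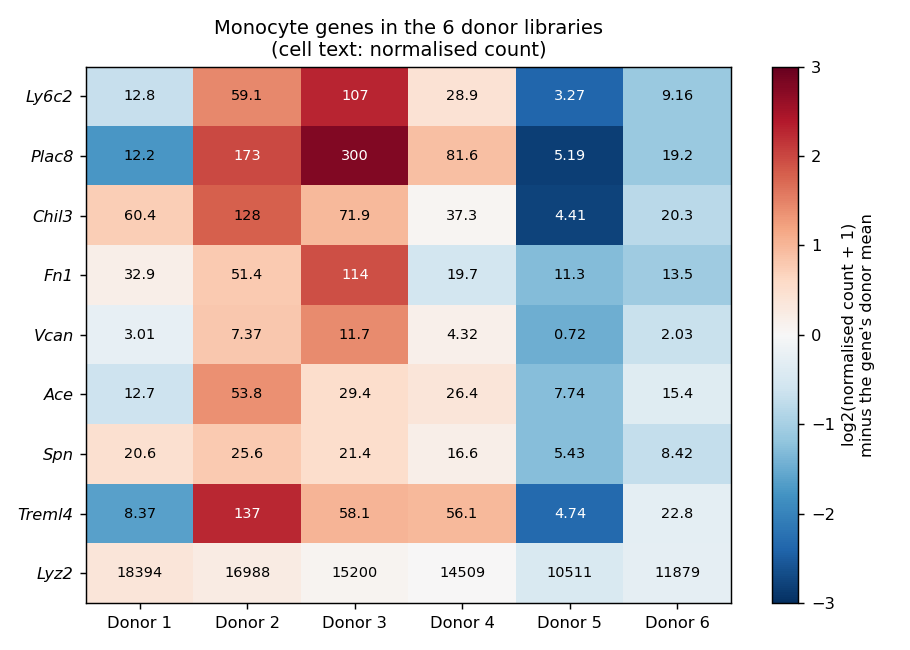
Monocyte genes in the 6 donor macrophage libraries; cell text gives the normalised count and colour the log2(normalised count + 1) minus that gene's mean over the 6. Libraries 2 and 3 are the pair with the highest values for every gene but Lyz2, and library 5 is lowest in each row.

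Set against all tested genes, the SD of Plac8 among donor libraries on the log2 scale lay at the 99.9th percentile, those of Treml4 and Ly6c2 at the 99.7th and that of Chil3 at the 99.5th. The ratio of the highest to the lowest donor library was 57.7 for Plac8, 32.7 for Ly6c2, 29.0 for Treml4, 28.9 for Chil3, 16.2 for Vcan, 10.1 for Fn1, 6.94 for Ace and 4.71 for Spn. Lyz2, at the 54.6th percentile, varied about as much as a typical gene. Over the 6 donor libraries, whose depths differ, the 36 pairs of members had a Pearson r of log2 values from 0.44 (Treml4 with Lyz2) to 0.996 (Ly6c2 with Vcan), with a median of 0.84. The libraries with the highest levels were the 2 with the fewest reads and the lowest was the deepest, and the part of depth was not tested.

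Without donor libraries 2 and 3 all 9 genes were still called higher in donor macrophages in both comparisons, an alternative chosen after seeing the data. Against GVHD host microglia Plac8 then differed by 2.18 (limma adjusted p = 0.0210) and Vcan by 1.01 (limma adjusted p = 0.0339), in place of 3.28 and 1.56. In 4 pairs of donor and GVHD host libraries that carry the same API and description number, all 36 differences of the 9 genes were positive. They ran from 4.23 to 4.76 for Lyz2, from 0.50 to 3.68 for Treml4 and from 0.38 to 3.07 for Vcan.

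Most other genes of classical monocytes were higher in donor macrophages too. Of 17 tested, 15 were called higher in donor macrophages than in GVHD host microglia and 1 lower, beside 19.4% and 19.2% of all tested genes. The median log2 difference was 3.19, beside 0.04 over all tested genes. F13a1, a coagulation factor subunit also carried by border macrophages, averaged 473 ± 264 in donor macrophages (SD, n = 6) and 7.53 ± 5.00 in GVHD host microglia (SD, n = 4), a difference of 5.88 ± 0.69 (adjusted p = 2.06e-05). Mgst1, a microsomal glutathione transferase, differed by 4.76 ± 0.39 (adjusted p = 9.30e-07) and Thbs1, thrombospondin, by 3.19 ± 0.41 (adjusted p = 4.33e-05). Itgam, the CD11b chain that microglia also carry, was the gene called lower, with a difference of -1.62 ± 0.09 (adjusted p = 4.93e-08). In the donor libraries 15 of the 17 were lowest in library 5 and 13 had libraries 2 and 3 as their highest pair. Among all tested genes these shares were 19.7% and 13.9%. The list with Ly6c1, 18 genes, summed to 1294, 2555, 3439, 1987, 699 and 1255 in donor libraries 1 to 6, against 937 to 1106 in GVHD host and 922 to 1059 in TCD host libraries, where Itgam made up most of the sum.

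Among the other non-classical genes calls went both ways. Of 18 tested, 12 were called higher in donor macrophages than in GVHD host microglia and 2 lower, beside 19.4% and 19.2% of all tested genes. The median log2 difference of the 18 was 1.502. Itgal, the LFA-1 chain, averaged 137 ± 43.7 in donor macrophages and 10.98 ± 8.73 in GVHD host microglia, a difference of 3.80 ± 0.19 (adjusted p = 1.57e-08). Cd300ld differed by 4.21 ± 0.42 (adjusted p = 5.11e-06), Cd36, a fatty acid and scavenger receptor, by 3.47 ± 0.33 (adjusted p = 3.75e-06), and Cd9, a tetraspanin that microglia carry, by -1.73 ± 0.12 (adjusted p = 1.39e-07). In the donor libraries 10 of the 18 were lowest in library 5 and 9 had libraries 2 and 3 as their highest pair, beside 19.7% and 13.9% of all tested genes. The sum of this list ran from 5588 to 8360 in donor libraries, against 9261 to 10738 in GVHD host and 9210 to 15941 in TCD host libraries, most of it from the fractalkine receptor Cx3cr1, which microglia express strongly. Against TCD host microglia 15 of 17 classical and 12 of 18 non-classical genes were called higher and 1 and 2 lower. Of all tested genes 18.4% were called higher there and 18.6% lower. Between the host groups 0 of either list was called by limma, beside 0.107% of all tested genes. At an unadjusted p under 0.05 were 0 of 17 and 3 of 18, beside 897 of 13086.

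**Figure D4:**
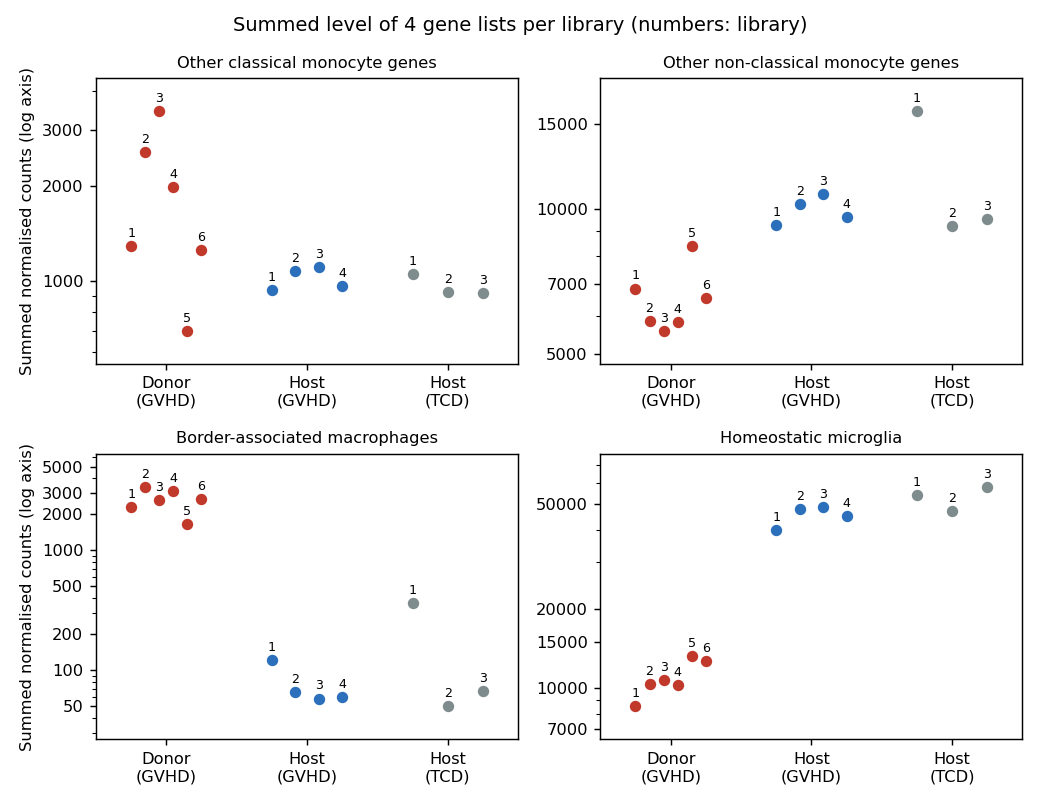
Summed normalised counts (log axis) of the other classical and other non-classical monocyte genes, border-associated macrophage genes and homeostatic microglia genes in donor macrophages, GVHD host microglia and TCD host microglia; each point is a library and numbers name it. The classical sum is highest in donor libraries 3 and 2 and lowest in donor library 5, while the microglia sum separates all donor from all host libraries.

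Regulators of monocyte fate were described from a list that shares Nr4a1 with the non-classical genes. Of 13 tested, 5 were called between donor macrophages and GVHD host microglia, 4 higher and 1 lower, with a median of 0.26. Among all tested genes 38.6% were called in either direction, so the count for this list is near the background and nothing is read from it. Nr4a1, an orphan receptor needed for non-classical monocytes, averaged 603 ± 272 in donor macrophages and 182 ± 91.8 in GVHD host microglia, a difference of 1.59 ± 0.26 (adjusted p = 0.000359). Klf4 differed by 1.09 ± 0.25 (adjusted p = 0.00386) and Egr1, an immediate early gene, by -1.28 ± 0.28 (adjusted p = 0.00255). Cebpb differed by 0.56 ± 0.19 (adjusted p = 0.0346) at means near 2 and 1. In the donor libraries 2 of the 13 were lowest in library 5 and 1 had libraries 2 and 3 as its highest pair. Among all tested genes these shares were 19.7% and 13.9%, so nothing is read from these counts either.

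Markers of other cells stood beside these levels as follows. The 9 border-associated macrophage genes, 1 of which, F13a1, is also in the classical list, summed to 2280, 3372, 2652, 3143, 1656 and 2671 in donor libraries 1 to 6, against 58.2 to 122 in GVHD host libraries and 364, 49.9 and 67.0 in TCD host libraries 1 to 3. All 9 were lowest in donor library 5, against 19.7% of all tested genes. In donor macrophages 8 of 9 were called higher than in GVHD host microglia, against 19.4% of all tested genes. Against TCD host microglia 6 of 9 were called higher, beside 18.4% of all tested genes. T, NK and B cell genes summed to 2.94 to 32.5 in donor libraries, against 5.61 to 17.0 in GVHD host and 4.47 to 17.3 in TCD host libraries. The part of monocytes not yet turned into macrophages, border macrophages, neutrophils and lymphocytes in the levels of the 9 genes was not tested.

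The genes most like each member over the 13 sorted libraries, by Pearson r of log2(value + 1), followed the same split of donor from host and are given as a description with no test. Ly6c2 was most like Clec4e (r = 0.991), Crip1 and Anxa2, Plac8 most like S100a6 (0.990), S100a10 and Klf13, and Vcan most like Mcemp1 (0.992), Ifi27l2a and Plac8. Chil3 was most like Cd177 (0.991) and Hp, then Ptgds, and Fn1 most like S100a11 (0.983), Rd3 and Lgals3. Ace was most like Unc119 (0.990), Pparg and Wfdc17, Spn most like Dock5 (0.987), Rd3 and Clec4a1, Treml4 most like Tgfbr3 (0.991), Cyp2ab1 and Ear2, and Lyz2 most like Clec12a (0.996), Cyp4f18 and Pla2g7. Over the 6 donor libraries alone Treml4 was most like Cyp2ab1 (0.997), Cd300e and Ear2, and Ly6c2 most like Tmsb10 (0.999), Crip1 and Anxa2. Plac8 was most like Kcne3 (0.998), Rab7 and Rab8a, and Chil3 most like Ifit3b (0.984), Prcp and Ddx4. Fn1 was most like F5 (0.992), Eif5al3-ps and Phf11a, and Vcan most like Anxa2 (0.9996), Ifi27l2a and Ifitm3. Ace was most like Ggh (0.997), AI987944 and Dusp16, and Spn most like Lyz1 (0.993), Ifit3b and Mbnl3. Lyz2 was most like Camk4 (0.992), Ip6k3 and Tmem171. Rab7 averaged 464 in donor and 431 in GVHD host libraries.

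Whole hippocampus holds 5 of the members in a table scaled separately from the sorted cells. Of the 4 that passed the filter on low values, Ace was called higher in GVHD than in TCD hippocampus, as were 0.319% of the 14404 tested genes. Ace had 74.0, 33.8 and 72.3 normalised counts in GVHD libraries 1 to 3, against 10.9, 14.8 and 17.2 in TCD libraries 1 to 3. The groups did not overlap, and 10.8% of all 14404 tested genes were higher without overlap. The difference was 1.93 ± 0.29 (limma adjusted p = 0.0394). The call was lost without GVHD library 1 (1.74, adjusted p = 0.151), without GVHD library 3 (1.76, adjusted p = 0.162), without TCD library 1 (1.76, adjusted p = 0.0563), without TCD library 2 (1.97, adjusted p = 0.139) and, at 1.93, with no mean-variance trend (adjusted p = 0.0943).

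Ace is also a gene of the choroid plexus, the epithelium that makes cerebrospinal fluid and borders the hippocampus. A list of 10 choroid plexus genes summed to 3235, 1066 and 3735 in GVHD hippocampus libraries 1 to 3. The sums were 109, 44.8 and 29.9 in TCD libraries 1 to 3. In GVHD, 9 of the 10 were called higher, beside 0.319% of all tested genes. GVHD library 2 had the lowest Ace value and the lowest choroid plexus sum of the 3. The part of choroid plexus tissue in the Ace difference was not tested.

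Lyz2 had 94.0, 202 and 40.8 normalised counts in GVHD hippocampus libraries 1 to 3, against 41.1, 24.3 and 8.99 in TCD libraries 1 to 3. TCD library 1 slightly exceeded GVHD library 3, and the difference of 2.08 ± 0.62 was not called (limma adjusted p = 0.154). The border-associated macrophage genes listed there summed to 12.4, 26.6 and 8.45 in GVHD libraries 1 to 3, against 10.8, 10.4 and 7.28 in TCD libraries 1 to 3, with the highest sum in the library that also had the highest Lyz2. Fn1 averaged 73.3 ± 13.3 in GVHD and 67.0 ± 4.49 in TCD hippocampus, a difference of 0.11 ± 0.13 (limma adjusted p = 0.695), and Vcan averaged 25.5 ± 1.89 in GVHD and 23.8 ± 2.95 in TCD hippocampus, a difference of 0.09 ± 0.11 (limma adjusted p = 0.714), each with n = 3. Both are also transcribed by brain cells other than myeloid ones. Spn, below the filter, had 0.97, 0.57 and 1.11 in GVHD libraries and 1.40, 0.83 and 0.43 in TCD libraries. Of the other monocyte lists, 0 of 9 classical, 0 of 11 non-classical and 0 of 12 regulator genes tested in hippocampus were called by limma, with 2, 5 and 2 at an unadjusted p under 0.05, beside 2449 of all 14404 tested genes.

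**Figure D5:**
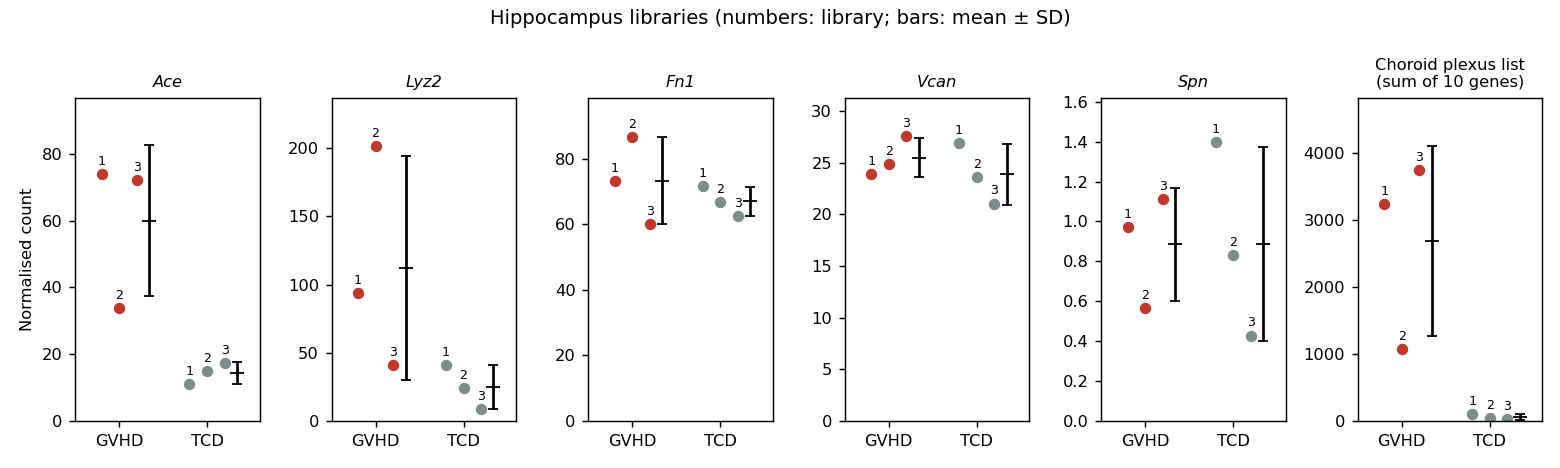
Normalised counts of 5 monocyte genes and the summed normalised counts of 10 choroid plexus genes in GVHD and TCD hippocampus; each point is a library, numbers name it, and bars give mean ± SD. Ace and the choroid plexus sum are both higher in all 3 GVHD libraries than in all 3 TCD libraries, with GVHD library 2 the lowest of the GVHD libraries in both panels.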

How the data were processed

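RNA from 13 sorted-cell and 6 hippocampus libraries was analysed from the deposited tables. The values are normalised counts, a signal scaled by the authors to nearly equal library totals (890565 to 1090631 in sorted cells, 982114 to 1078636 in hippocampus). The submitters' processing notes list cutadapt 1.9, STAR 2.5.2a, RSEM 1.2.30 and GRCm38, with no role for each, and the annotation and scaling method are not given in the sources used here. RNA was isolated with either of 2 kits, per the labels, which do not say which served which sample, and libraries are labelled stranded. Only 69.2% to 73.9% of sorted and 83.0% to 83.9% of hippocampus values were whole multiples of the value of 1 read (tolerance 0.02), so no count test was run. Estimated reads per library were 7901523 to 35844769 in sorted cells and 16673616 to 18546935 in hippocampus, which limits values near 0, and intervals cover the spread between libraries only.

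Groups came from the sample titles. Genes reaching 1 normalised count in 3 or more libraries (13086 sorted, 14404 hippocampus) entered limma 3.58.1 (R 4.3.3) as log2(value + 1). Its variance prior followed the mean, p-values were two-sided, and the Benjamini-Hochberg method adjusted them over the whole table. The 13 sorted libraries shared 1 model with the API number as covariate. Identifiers were matched to symbols in a GRCm38 annotation, 213 and 192 without a match, and promoter windows came from RefSeq on GRCm38.p6. The fit was tested on simulated data first.

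The members and lists were chosen with earlier results of these data known. From each list up to 4 genes with the smallest p were named, and for each member the 3 genes with the highest r; other genes were named after their values were seen. Alternatives covered the pseudocount, filter, scaling, variance trend, covariate, each library left out and a block. Of deviations from group means, the 4 donor and GVHD host pairs with the same API and description number had r of 0.166 to 0.394. The 20 other pairs of these groups had -0.345 to 0.404, and 7 of 8 libraries were best with their own number. The 3 donor and TCD host pairs with the same title number had 0.308 to 0.585, and the 15 other pairs -0.582 to 0.532. Donor and TCD host libraries come from different mice, so that number marks no shared animal. Neither number entered the main model, and both served only as blocks in alternatives. Donor macrophages of TCD mice were not analysed here.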

Additional observations from a re-analysis of the deposited data

Results flagged for a closer look

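In 18 groups of 4 or 6 sorted libraries (9 monocyte genes in donor macrophages and in GVHD host microglia), 2 values stood apart from the rest of their group by Dixon's test; chance flags about 1 in 20 groups. Chil3 was 3.29 in GVHD host library 4, where GVHD host libraries 1 to 3 had 0.16, 0.13 and 0, and library 4 also had the highest neutrophil sum of that group, 22.4. Ace was 0.078 in GVHD host library 1, below 0.25, 0.25 and 0.23 in libraries 2 to 4, values that stand for an estimated 2 reads in library 1 and 4, 4 and 2 in the others.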

How the results depend on the processing

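Alternatives were read for calls, direction and size. The 9 monocyte genes kept their calls in donor macrophages against TCD host microglia in all 215 gene-level alternatives, and against GVHD host microglia in 232, with 1 exception, Vcan without GVHD host library 3 (1.44). The count of the 9 called was 8 to 9 against GVHD host and 9 to 9 against TCD host microglia with each library left out. A filter of at least 5 left Vcan untested. Blocks by the description number (9 called) or the title number (9 called) changed no call of the 9 in sorted cells. Over all genes, leaving out a library gave 4380 to 5419 calls against GVHD host and 3740 to 5354 against TCD host microglia, and other settings 4099 to 5232 and 3935 to 4979.

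Between the host groups, 14 genes were called over the whole table, 2 with a replicate block, 0 with the 2 groups fitted alone and 6 to 28 with 1 library left out, the highest without GVHD host library 3. Differences near 0 changed sign there with 1 library left out. Ly6c2 (0.15) ran from -0.0872 without GVHD host library 2 to 0.498, and was -0.0227 without TCD host library 3. Ace (-0.03) ran from -0.131 to 0.223 (without TCD host library 1), and Treml4 (0.33) from -0.122, without GVHD host library 1, to 0.457. The title numbers of these groups (r from -0.017 to 0.222, 2 of 6 libraries best with their own number) and of the hippocampus (r from -0.183 to -0.04, 0 of 6) were not taken as pairs.

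In hippocampus, Ace was the 1 monocyte gene called, 0 with no variance trend, 0 with a replicate block (adjusted p = 0.0710) and 0 to 1 with 1 library left out. Of all genes there, 69 were called, 39 with quantile normalisation, 0 with no trend, 16 with a replicate block and 0 to 123 with 1 library left out, 0 without GVHD library 3 or TCD library 2, 2 without GVHD library 1 and 123 without TCD library 3. The share of higher among called genes was 66.7%, and 76.9% with quantile normalisation. Fn1 ran from -0.0122, without GVHD library 2, to 0.249 with 1 library left out. Causes were not tested. Low levels in host libraries rest on a few reads, and 3 hippocampus libraries a group leave small differences undetectable.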

Other observations

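Genes of dendritic cells, a fate that monocytes can also take, moved in both directions. Of 9 tested, 6 were called higher in donor macrophages than in GVHD host microglia and 1 lower, against 19.4% and 19.2% of all tested genes, with a median log2 difference of 2.25. Their summed level was lower in donor libraries, at 413 to 891 normalised counts, against 1039 to 1428 in GVHD host and 1036 to 1476 in TCD host libraries. Clec10a, a galactose-binding lectin, averaged 77.0 ± 38.6 in donor macrophages (SD, n = 6) and 0.75 ± 0.27 in GVHD host microglia (SD, n = 4), a difference of 5.34 ± 0.43 (limma adjusted p = 7.62e-07), and Flt3, a growth factor receptor of dendritic cells, differed by 2.33 ± 0.22 (limma adjusted p = 2.59e-06). Bst2, tetherin, differed by 1.67 ± 0.11 (limma adjusted p = 1.17e-07). Siglech, shared by microglia and plasmacytoid dendritic cells, had 60.8 to 206 normalised counts in donor libraries, against 944 to 1345 in GVHD host libraries, most of the host sum, and was the 1 called lower, at -3.08 ± 0.16 (limma adjusted p = 2.43e-08). In donor libraries 1 to 6, Cd209a, chosen after its values were seen, had 7.56, 68.5, 151, 115, 8.74 and 28.5 normalised counts, highest in library 3 as for Ly6c2 and Plac8. For 0 of the 9 genes were donor libraries 2 and 3 the highest pair, against 13.9% of all tested genes, and 5 of the 9 were lowest in donor library 5, against 19.7% of all tested genes.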
